A study of Mus musculus with 2 samples.

Results

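The genes described here carry the signal from the high-affinity IgE receptor into the mast cell. They are 31 genes chosen by symbol from a list of receptor-proximal tyrosine kinases, adaptor proteins, exchange factors for small GTPases, PI 3-kinase subunits, phospholipases, calcium entry proteins, protein kinases C and inhibitors. The rule names the genes and uses none of their values, but the list was drawn up with earlier results of these data known. They are 31 of 34732 genes on the array (names given only by the array included), and 47 of its 55659 probes. Of the 31, 30 were well above background on both arrays and have a difference between the arrays. The remaining gene, Fgr, was well above background on the GATA1 siRNA array only.

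Both groups are mast cells grown in culture from the marrow of C57BL/6 mice, kept first for 2 weeks in interleukin 3 (10 ng/mL), then 2 weeks more in interleukin 3 plus stem cell factor (10 ng/mL). One group was given 200 pmol of a control siRNA and the other 200 pmol of an siRNA directed at GATA1, the factor that binds GATA sites in red cell, platelet, eosinophil and mast cell precursors. RNA of 2 animals was pooled for each group and read on 1 one-colour Agilent array, so each group is 1 array and its animals cannot be separated. Precision is limited by having 1 array a group, no difference has a replicate check, and no p-value is given.

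Binding of antigen to IgE on the mast cell surface clusters the receptor, and the Src family kinase Lyn then phosphorylates its signalling chains, which recruit the kinase Syk. Syk phosphorylates the membrane adaptors Lat and Lat2, on which further adaptors, exchange factors and phospholipase C gamma assemble. The phospholipase makes the messengers that release stored calcium and activate protein kinase C, calcium then enters through the Stim1 and Orai1 pair, and granules are released. Lipid phosphatases, tyrosine phosphatases, ubiquitin ligases and Dok adaptors limit the response.

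As a check of the knockdown, the probe of Gata1 read 16415 with control siRNA and 3930 with GATA1 siRNA, a log2 difference of -2.23 with a scanner error of 0.20. Gene spots well above background made up 53.3% (control siRNA) and 55.7% (GATA1 siRNA), and none was saturated. The labelled cell type was checked against 11 defining genes of mast cells, all of them well above background on both arrays, with a median difference of -0.07. Of the 11, the proteases Mcpt4 (-0.88) and Tpsb2 (-0.55) were lower past 0.32 on the log2 scale. Markers of other cells were not equal: 14 of 15 measured neutrophil markers, 13 of 14 macrophage and monocyte markers, 7 of 8 dendritic cell markers were higher with GATA1 siRNA, all 3 basophil markers were higher (median 0.24), and 7 of 9 eosinophil markers were lower. The summed scaled level of the neutrophil list was 208 and 234 (control siRNA, then GATA1 siRNA), that of the macrophage list 35.6 and 52.2, that of the dendritic cell list 11.6 and 15.6, and that of the eosinophil list 35.1 and 26.5. Ctsg (log2 scaled levels of 6.69 and 6.32, -0.37) weighs most in the neutrophil sum and was the only measured neutrophil marker that was lower. The neutrophil markers Fcnb and Mmp9 and the eosinophil entry Siglec5 were not measured. The eosinophil markers above 0 were Siglecf (0.60, dim at signals of 18.9 and 32.2) and Ear1 (0.03). Of the T cell list 2 of 7 genes were measured, Cd3e (signals of 1117 and 1134, -0.14) and Cd5 (-0.43). Of the B cell list 2 of 5 were, Cd79a (-0.38) and Cd79b (-0.05). Those not measured included the T cell chains Cd3d, Cd3g and Cd247 and the B cell genes Ms4a1 and Pax5. In such a mixed RNA sample, fewer cells of a type and less RNA per cell cannot be told apart.

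Lcp2 (Slp76) and Grap2 (Gads), adaptors that bind each other, had lower signals on the GATA1 siRNA array and promoter windows with several runs of GATA motif letters. Promoter windows run from 250 bases before to 50 bases after the annotated start of a gene and come from RefSeq (build GRCm38.p6). The table gave 32 windows for 25 of the 31 members, and Dok1, Dok2, Gab2, Lat2, Lyn and Rasgrp4 had none. The letters searched, on both strands, were the usual forms of the GATA site: AGATAA, the same with a closing G (AGATAG), the form that opens with T (TGATAA) and that form with a closing G (TGATAG). The windows of Lcp2 and Grap2 are printed, with the matches in capitals, because these members pair a difference past the size rule below with matches in the window. Having both is how they were chosen, so the pair is no test of a link.
Lcp2, chr11:34046678-34046977, plus strand: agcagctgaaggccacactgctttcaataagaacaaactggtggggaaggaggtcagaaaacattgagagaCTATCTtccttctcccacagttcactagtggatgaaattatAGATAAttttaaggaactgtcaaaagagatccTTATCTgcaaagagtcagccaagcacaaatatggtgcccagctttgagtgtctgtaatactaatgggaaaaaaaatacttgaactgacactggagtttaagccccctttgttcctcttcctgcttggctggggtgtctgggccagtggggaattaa
Grap2, chr15:80623233-80623532, plus strand: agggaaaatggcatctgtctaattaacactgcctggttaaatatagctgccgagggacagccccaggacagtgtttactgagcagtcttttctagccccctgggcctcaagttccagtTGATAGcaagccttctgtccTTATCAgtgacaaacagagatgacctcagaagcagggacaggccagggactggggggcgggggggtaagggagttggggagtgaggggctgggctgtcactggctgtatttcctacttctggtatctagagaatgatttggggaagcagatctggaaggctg

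The Lcp2 window has 3 matches, which begin 179, 138 and 106 bases before the start of the gene. The Grap2 window has 2, at 132 and 112 bases before the start. Of all 32851 promoter windows in the table, 29.8% hold at least 1 match, 7.77% at least 2 and 1.76% at least 3. Of the 32 windows of the members, 11 (34.4%) hold at least 1 match, 3 hold at least 2 and 1 holds 3, so the members as a set lie near the share of all windows. The remaining window with 2 matches belongs to Pik3r1, whose signal was higher with GATA1 siRNA (log2 difference 0.15). Single matches lie in windows of Fyn, Inpp5d, Plcg2, Rasgrp1, Syk, Vav1 and 2 of the 3 windows of Pik3cd, genes with differences from -0.0045 to 0.26. The windows of Orai1, Cbl, Ptpn22 and Sos1, which have the other differences past 0.32 in size, hold no match. A match is a run of letters in the window and was not tested as a binding site.

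**Figure D1:**
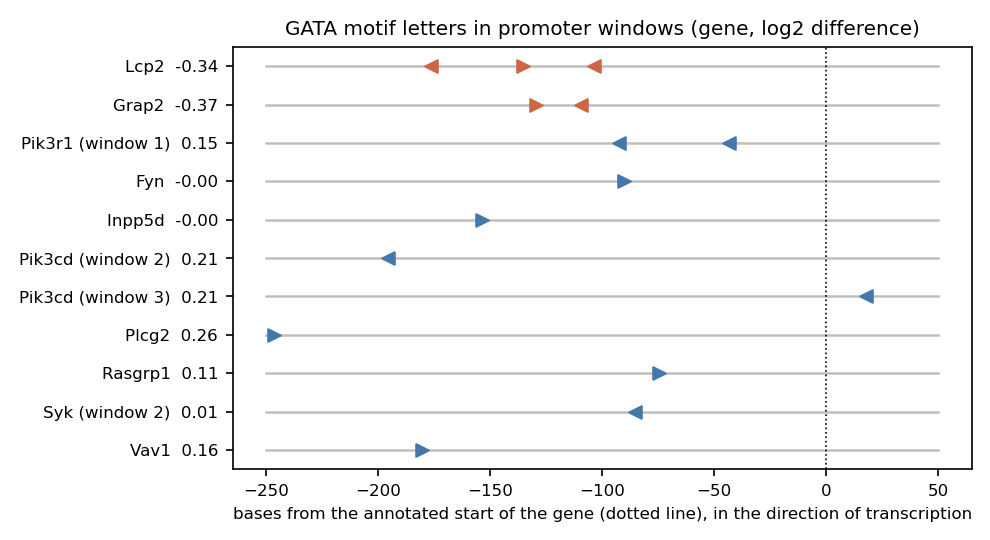
Positions of the GATA motif letters in the 11 promoter windows of members that hold at least 1 match, in bases from the annotated start of the gene (dotted line). Arrowheads point along the strand that carries the letters, and the number beside each gene is its log2 difference, GATA1 siRNA minus control siRNA. Lcp2 (3 matches, -0.34) and Grap2 (2 matches, -0.37), in orange, were picked for having both matches and a lower value. The genes in blue lie between -0.0045 and 0.26. Members without a match are not drawn, among them Sos1 (-0.43) and Plcg1 (-0.23), also below 0, and Orai1 (0.51) and Cbl (0.55), above 0. Gab2 (-0.30) and Dok2 (-0.17) had no window.

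Signals are the scanner software's processed intensities. A scaled level is a signal divided by the 75th percentile of its own array, which was 303 with control siRNA and 340.0 with GATA1 siRNA, so equal raw signals give a difference below 0. Differences are log2 values of scaled levels, GATA1 siRNA minus control siRNA, and the error beside them is that of the scanner software's error model, which covers the reading of the spots and not cells or animals. For a single member probe that error ran from 0.20 to 0.36. The error of a gene with several probes takes them as independent and shrinks with their number, to 0.12 for the 3 probes of Pik3cd. Whether a gene passes its error thus depends in part on its number of probes. Probes that the array design prints repeatedly give another measure of reading error: the median SD of the difference between their spots was 0.26 at log2 scaled levels under -2, 0.11 between -2 and 0, 0.06 between 0 and 3 and 0.03 above. Of the 14 members with several measured probes, 12 had all their probes on the same side of 0, and the SD between probes of a member had a median of 0.03, against 0.10 over all 5666 genes with several measured probes. These values for the members include Stim1, whose probes share 51 of their 60 bases and so are not separate measurements. The medians are not matched for brightness: 21 of 30 measured members and 10219 of 20399 genes had a mean log2 level of 0 or more. Among the members Syk (0.47), Plcg1 (0.22) and Cblb (0.21) had the largest SDs between probes.

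**Figure D2:**
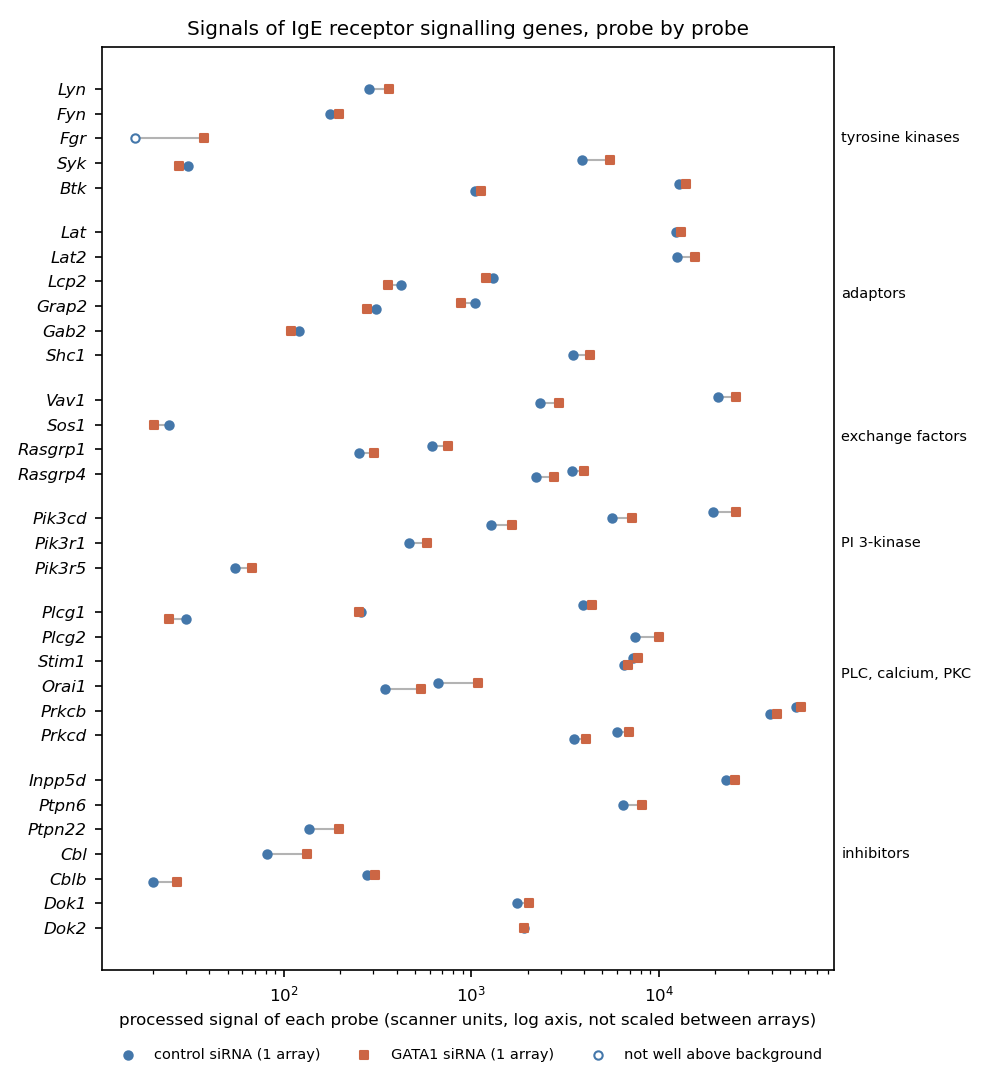
Processed signal of each of the 47 probes on the control siRNA array (circles) and the GATA1 siRNA array (squares), in scanner units on a log axis and not scaled between arrays, by step of the pathway. Most pairs lie close together with the square to the right, the pairs of Lcp2, Grap2, Gab2, Sos1, Dok2 and the dimmer probes of Syk and Plcg1 have the square to the left, and the Fgr circle is open because that spot (16.01) was not well above background.

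The members as a whole differed little between the arrays. Their median difference was 0.07 over 30 measured genes, beside 0.01 over all 20399 measured genes, and 18 of the 30 were above 0, beside 52.7% of all genes. None of the 30 passed 1.5-fold in either direction, where 4.59% of all genes did, and none passed 2-fold, where 0.902% did. A smaller size rule, a log2 difference of 0.32 or more in size (25% above the lower array), was passed by 6 of the 30 (20.0%), close to the 16.8% of all genes. These were Orai1, Cbl and Ptpn22 on the higher side (7.29% of all genes) and Sos1, Grap2 and Lcp2 on the lower side (9.52% of all genes). The split was 3 higher and 1 lower (Sos1) with the scaling of the authors' table, where 17.5% of all genes passed, and 3 higher and 2 lower with the loess scaling, where 15.9% did. With normexp background correction it was 2 higher (Orai1 and Cbl) and 0 lower, where 6.52% of all genes passed. The calls of Lcp2, Grap2, Sos1 and Ptpn22 (0.26 with normexp) thus depend on the setting, and Cbl and Sos1 have no value where probes under a signal of 100 are left out. Lcp2 (-0.28) also missed the rule with its brightest probe alone. Dim genes scatter more, so the background was also taken by brightness, which was added with the values known. Among 9 members with a mean log2 level under 0, 3 passed 0.32 in size, beside 25.7% of all genes of that range, and among 21 brighter members 3 did (Lcp2, Grap2 and Orai1), beside 7.91%. A difference larger than 2 scanner errors, a rule added after the values were seen, was found for Lcp2, Grap2, Orai1 and Cbl, 4 of 30, beside 10.0% of all genes. The errors of Lcp2, Grap2 and Orai1 in that rule are those of 2 probes combined, which eases the rule for them.

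**Figure D3:**
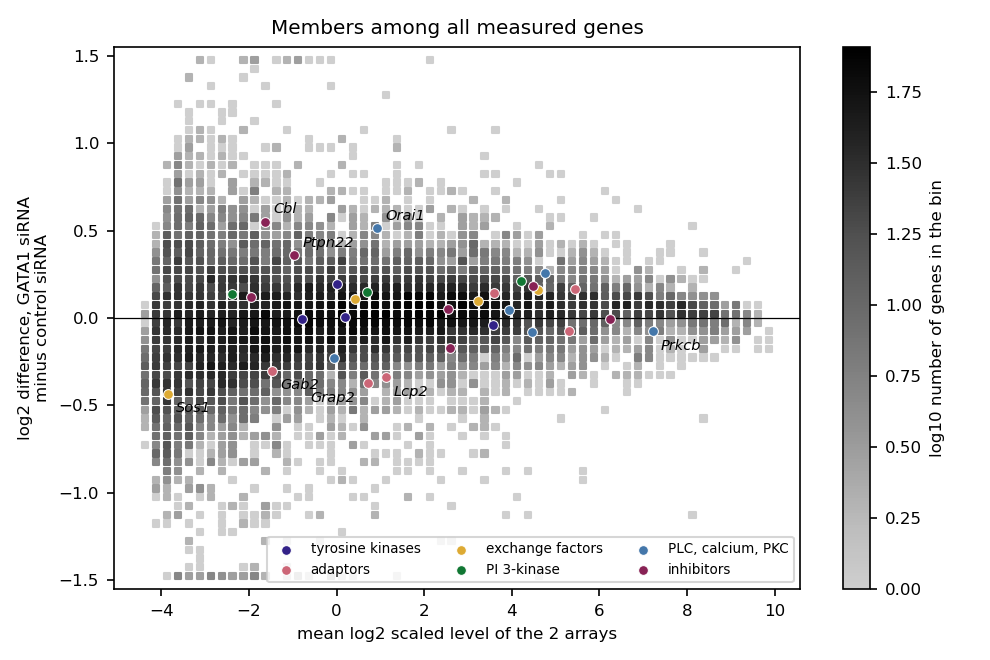
Log2 difference (GATA1 siRNA minus control siRNA) against the mean log2 scaled level of both arrays. Grey squares count all 20399 measured genes in bins, with differences beyond 1.5 drawn at the edge, and coloured points are the 30 measured members by step. The cloud of all genes widens at low levels, where Cbl (0.55) and Sos1 (-0.43) lie, and Orai1 (0.51), Lcp2 (-0.34) and Grap2 (-0.37) lie at levels where it is narrower.

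Lyn, Fyn and Btk, tyrosine kinases next to the receptor, lay within their errors of 0. Syk depended on the probe, and Fgr was well above background on the GATA1 siRNA array only. Lyn, the Src family kinase that starts the cascade and also feeds its inhibitory arm, had signals of 283 (control siRNA) and 363 (GATA1 siRNA), a difference of 0.19 with an error of 0.20. Fyn, the Src family kinase of the arm through Gab2 and PI 3-kinase, had 175 and 196, which is -0.0028 after scaling. Btk, a Tec family kinase that activates phospholipase C gamma, had 12820.4 and 14043 at its brighter probe and 1039.7 and 1129 at the other. Both probes of Btk gave small negative values (-0.03 and -0.05), and the sign turned positive (0.02) with the scaling of the authors' table. The step had a median of 0.0012 over 4 measured genes, and it ran up to 0.10 under the alternatives.

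Syk, the kinase recruited by the phosphorylated receptor, rests on a pair of probes that disagree in sign, and the first 30 bases of each 60-base probe are printed to tell them apart (positions in build mm9, as the array annotation gives them).
Syk, NM_011518, chr13:52744088-52744147, plus strand: cccagagcagcacacagtgattccctgtta
Syk, AK049207, chr13:52738924-52738983, plus strand: gaccacaggctcgatccaattataattaaa
The first of these, named for the RefSeq transcript, had signals of 3888 and 5498, a difference of 0.33 with an error of 0.20. The second, named for a cDNA clone, had 30.6 and 27.4, a difference of -0.32 with an error of 0.29. Their mean is 0.01 and their SD 0.47, the largest between probes of any member. With the brightest probe alone, or with probes under a signal of 100 left out, Syk stood at 0.33, past the 0.32 rule.

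Fgr is a Src family kinase of neutrophils, monocytes and macrophages that mast cells also use. Its probe had a signal of 16.01 on the control siRNA array, not well above background, and 37.6 on the GATA1 siRNA array. After scaling Fgr read 2.10-fold higher with GATA1 siRNA, at a single dim probe (chr4:132557522-132557581, mm9) whose error was 0.38 on the log2 scale. Because the control siRNA spot was not well above background, 2.10-fold is a reading of these spots and not a lower limit. The neutrophil and macrophage markers were higher in the same direction, with medians of 0.50 over 15 and 0.40 over 14 measured genes, and their part in the value of Fgr was not tested.

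Among the adaptors Lcp2 and Grap2 were lower with GATA1 siRNA, each at both of its probes, Gab2 was lower at its single probe, and the other adaptors lay within their errors of 0. Lcp2 (Slp76) is the cytosolic scaffold that brings Vav1, Btk and phospholipase C gamma together. Its probe at chr11:33992133-33992192 (mm9) had signals of 1302 and 1198, and its probe at chr11:33989870-33989929 had 419.7 and 358. Both probes were lower with GATA1 siRNA, by -0.28 and -0.39, and the gene stood at -0.34 (1.26-fold lower, error 0.14, SD between probes 0.08). Grap2 (Gads) is the small adaptor that holds Lcp2 on phosphorylated Lat. Its probes, at chr15:80482962-80483021 and chr15:80479094-80479153, had signals of 1049.7 and 882 at the first and 310.2 and 278 at the second. They too were both lower, by -0.42 and -0.33, and the gene stood at -0.37 (1.29-fold lower, error 0.14, SD between probes 0.06). Raw signals of both genes were lower on the GATA1 siRNA array even before scaling, although that array was the brighter of the pair.

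Gab2, the scaffold that recruits PI 3-kinase, had signals of 120.4 and 109.6 at its only probe, a difference of -0.30 with an error of 0.21, short of 0.32 in size. The membrane adaptor Lat, which gathers the Gads and Slp76 complex, had 12382 and 13182, a difference of -0.08. Lat2 (Ntal), its relative with both activating and restraining roles in mast cells, had 12472 and 15671, a difference of 0.16, and so lay on the other side of 0 from Lat. Both of these lie within their error of 0.20. Shc1, which links receptors to Ras, had 3473 and 4301, a difference of 0.14. The step had a median of -0.19 over 6 genes, the lowest of the 6 steps, and between -0.20 and -0.13 under the alternative settings. Of 10 other measured adaptor genes of the pathway 9 were above 0, and the median of the 10 was 0.17, on the other side of 0 from Lcp2, Grap2 and Gab2. The remaining gene, Clnk (signals of 7818 and 7345), was lower, at -0.26.

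The exchange factors were slightly higher apart from Sos1. Vav1, which activates Rac downstream of Syk, had 20667 and 25652 at its brighter probe and 2329.7 and 2944 at the other, whose annotated positions span an interval of 3403 bases on chromosome 17. The probes gave 0.15 and 0.17, and the gene stood at 0.16 with an error of 0.14. Rasgrp1, an exchange factor for Ras that responds to diacylglycerol, had 615 and 748 at its brighter probe and 251 and 302 at the other, a mean difference of 0.11. Rasgrp4, a relative largely restricted to mast cells, had 3433 and 3975 at one probe and 2212 and 2749 at the other, a mean difference of 0.10. Sos1, the exchange factor that Grb2 brings to Ras, was dim, with 24.4 and 20.3, and its difference of -0.43 has an error of 0.36. At such levels the repeated probes varied by 0.26, so the value of Sos1 is the least certain among the 6 past 0.32 in size.

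The PI 3-kinase subunits all had values above 0. That of Pik3cd exceeded the scanner error of its 3 probes combined (0.12), while each probe alone lay near the error of a single probe (0.20). Pik3cd, the catalytic subunit delta that leukocytes use, has 3 probes, with signals of 19523 and 25671, 5658 and 7203, and 1268 and 1653. The probes gave 0.23, 0.18 and 0.22, so the gene value of 0.21 has an SD between probes of 0.02 and a scanner error of 0.12. Pik3r1, the regulatory subunit that partners it, had 463 and 576, a difference of 0.15. Pik3r5, the regulatory subunit of the kinase that answers G protein-coupled receptors, had 55.0 and 67.8, a difference of 0.14. The step median was 0.15 over 3 genes, all of them above 0 under each alternative setting that gave a value (Pik3r5 has none where probes under a signal of 100 are left out), and all under 0.32 in size.

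**Figure D4:**
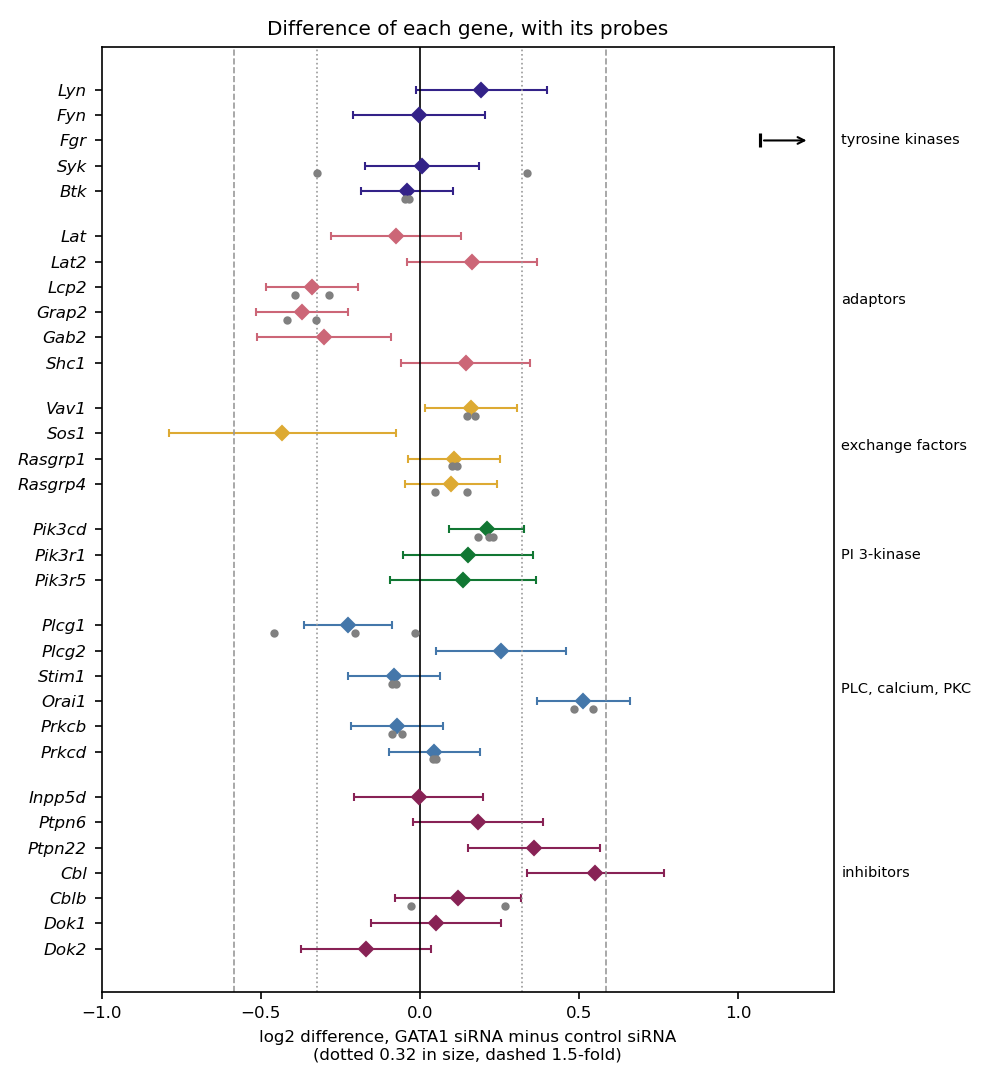
Log2 difference of each member, GATA1 siRNA minus control siRNA (1 array each), by step. Diamonds are genes with the scanner error as bars (probes of a gene taken as independent, for Stim1 too), and grey points below them are the separate probes of genes with several. The dotted lines mark 0.32 in size and the dashed lines 1.5-fold. The tick with an arrow at Fgr marks the difference of its spots and not a lower limit, since the control siRNA spot was not well above background. Orai1 (0.51) and Cbl (0.55) lie farthest right among the diamonds, Grap2, Lcp2 and Sos1 lie past the left dotted line, and the grey points of Syk lie far apart (0.33 and -0.32).

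Of the calcium entry pair, Orai1 was higher with GATA1 siRNA by more than its scanner error and Stim1 was not. Orai1, the pore of the store-operated calcium channel, had signals of 666 and 1088 at chr5:123479844-123479903 (mm9) and 345 and 541 at chr5:123480377-123480436. Both probes were higher with GATA1 siRNA, by 0.54 and 0.48, and the gene stood at 0.51 (1.43-fold higher, error 0.14, SD between probes 0.04). By the size of its difference Orai1 ranked 1323 among all 20399 measured genes. Stim1, the calcium sensor of the store that opens Orai1, had 7243 and 7711 at one probe and 6488 and 6847 at the other, and stood at -0.08. Its probes count as 1 measurement, with the error of a single probe (0.20), because they share 51 of their 60 bases. Their first 30 bases are printed with the letters that both printed stretches hold in capitals.
Stim1, chr7:109585303-109585362, plus strand: agggctcttGTGGAGCCCTGGGCAAGGATG
Stim1, chr7:109585312-109585371, plus strand: GTGGAGCCCTGGGCAAGGATGttatatttg

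Of the phospholipases that split the lipid PIP2, Plcg2, the form prominent in myeloid cells and B cells, had 7476 and 10007, a difference of 0.26 with an error of 0.20. Plcg1, its relative, stood at -0.23 over 3 probes whose values lay lower the dimmer the probe. The probe with signals of 3961 and 4395 gave -0.02, that with 259 and 252 gave -0.20, and that with 30.02 and 24.5 gave -0.46. With the brightest probe alone Plcg1 therefore stood at -0.02. Among the protein kinases C, Prkcb, a form that mast cells need for degranulation, had 54080.1 and 57029 at one probe and 39363 and 42444 at the other, a mean difference of -0.07. Prkcd, a form reported to restrain or support degranulation by context, had 5949 and 6902 and 3536 and 4083, a mean difference of 0.05. Both Prkcd probes lie beside spots that differed 4-fold or more between the arrays, so Prkcd has no value when such spots are left out. The step median was -0.01 over 6 genes, and it ran from -0.07 to 0.05 under the alternatives.

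Of the 7 inhibitors 5 had values above 0, with Cbl and Ptpn22 the largest. Cbl, the ubiquitin ligase that marks activated Syk and receptor for destruction, had signals of 81.1 and 133 at its only probe (chr9:43958124-43958183, mm9), a difference of 0.55 (1.47-fold higher, error 0.21). It was the highest of the measured members, and it passed 1.5-fold with the scaling of the authors' table (0.61) and with the loess scaling. Ptpn22, a tyrosine phosphatase that acts on Src and Syk family kinases, had 136 and 196, a difference of 0.36 with an error of 0.21. Cblb, the relative of Cbl, had 278 and 306 at one probe and 19.9 and 26.9 at the other, with differences of -0.03 and 0.27 and a mean of 0.12. The 2 probes of Cblb thus disagree in sign, and only the dim one was higher.

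Inpp5d, the lipid phosphatase that removes the product of PI 3-kinase and restrains degranulation, had 22907 and 25609, a difference of -0.0045. Ptpn6, the tyrosine phosphatase recruited by inhibitory receptors, had 6402 and 8148, a difference of 0.18 with an error of 0.20. Dok1, an adaptor that recruits the Ras GTPase-activating protein, had 1745 and 2027, a difference of 0.05. Dok2, its relative, had 1919.9 and 1913, a difference of -0.17 after scaling. The step median was 0.12 and ran from 0.02 to 0.18 under the alternatives. Most neutrophil and macrophage markers were higher with GATA1 siRNA, and their part in the values of the inhibitors, higher or lower, was not tested.

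The wider pathway, 108 further genes of which 96 were measured, had a median difference of 0.09, with 63 of the 96 above 0, beside 52.7% of all genes. By the 0.32 rule 7 were higher and 3 lower, beside 7.29% and 9.52% of all genes. In either direction that is 10.4% of the 96, beside 16.8% of all genes. By 1.5-fold none was higher and 2 were lower, beside 1.83% and 2.76% of all genes. The lower pair were Prkce, a protein kinase C (signals of 73.4 and 46.8, -0.82), and the sphingosine kinase Sphk1, whose 2 probes gave -0.95 and -0.39 and of which 1 lies beside spots that differed 4-fold or more. The largest value of each other step was that of Ptk2b among the kinases (0.41), Shb among the adaptors (0.36), Rapgef1 among the exchange factors (0.18), Pik3cb among the PI 3-kinase genes (0.50) and Tnfaip3 among the inhibitors (0.45). Kcnn4, the calcium-activated potassium channel that sustains calcium entry in mast cells, had 5633 and 8714, a difference of 0.46 on the side of Orai1, while Orai2 (0.12), Orai3 (0.14) and Stim2 (0.10) were under 0.32. Neither the 17 genes of the MAP kinase cascade (median -0.04) nor the 16 measured genes of granule release (median 0.05) had a gene past 0.32 in size. The largest in size among the granule release genes was Cplx2, a complexin of regulated exocytosis (-0.30). The receptor chains above the pathway differed by -0.17 (Fcer1a), 0.01 (Ms4a2) and -0.12 (Fcer1g).

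**Figure D5:**
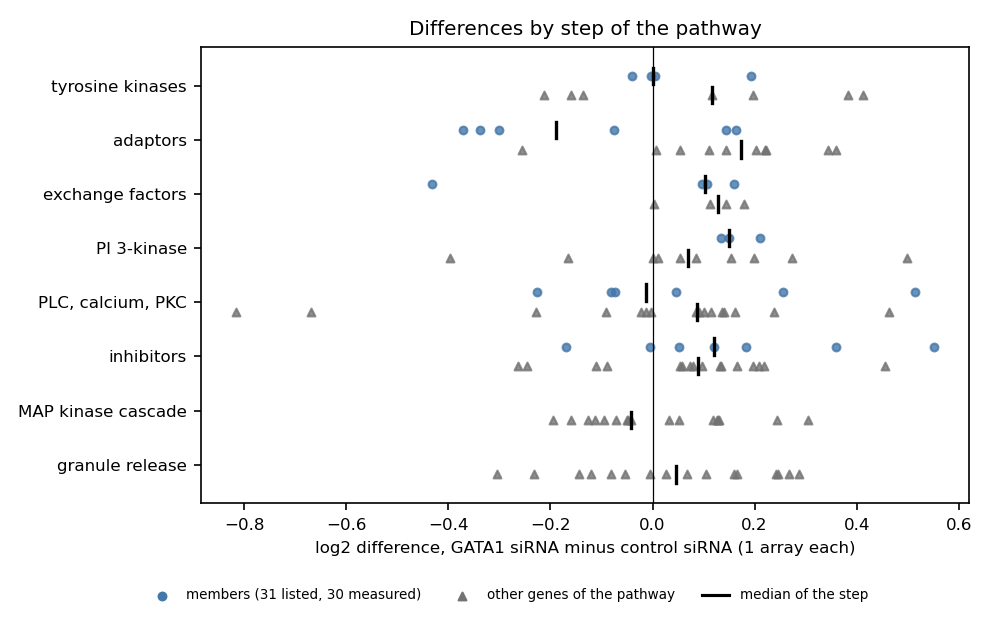
Log2 differences (GATA1 siRNA minus control siRNA, 1 array each) of the measured members (blue circles) and of other genes of the pathway (grey triangles) by step, with the median of each as a black bar. The adaptors are the only step where the median of the members (-0.19) lies far to the left of that of the other genes (0.17), and Prkce (-0.82) and Sphk1 (-0.67) are the grey points farthest left.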

How the data were processed

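The authors deposited 1 Agilent scanner file per array, with intensity values from Agilent Feature Extraction 10.7.3.1, per the file headers. That signal had its background subtracted and its spatial trend removed array by array, dim spots carry surrogate values, and the arrays are not scaled to each other. A further deposited table holds normalized intensity, and it equals each array's processed signal divided by its median, found by matching the values.

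Control spots and spots marked as outliers (117 and 133) were left out, repeated spots were averaged as log2 values, and signals were scaled to the 75th percentile of probes on their array. A probe was measured where both arrays called it well above background and unsaturated, and a gene is the mean of its measured probes. Members were taken by the array's gene symbols. Other genes were named by RefSeq accession, symbol or unique synonym (assembly GRCm38.p6, names only). Of 55659 probes, 24289 matched none of these and kept the array's own name. Such names were counted as genes and not left out, which gave 20399 measured genes for the shares of all genes. Coordinates of probes are those of the array annotation (mm9), and no annotation of that build was used, so exon or UTR positions are not given. With 1 array per group there was no test, and size rules took its place (a log2 difference of 0.32 in size, 1.5-fold and 2-fold). All members were named, and other pathway genes by the largest value per step or a difference past 1.5-fold, with Gata1 as a check. Some items that this rule names are not reported here. Kcnn4, Orai2, Orai3, Stim2, Mcpt4, Tpsb2 and the receptor chains were named after their values were seen. The members and lists were chosen with earlier results of these data known. Alternatives were normexp background correction (limma 3.58.1, R 4.3.3, offset 50), scaling by loess (span 0.4), quantiles, the measured probes' median or the authors' table, no filter or a stricter filter (signal of 100) on dim probes, the brightest probe or the median over probes, outlier spots kept, and spots left out that have at least 2 neighbours within 26 µm differing 4-fold or more. The scaling and gene summary were tested on simulated data.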

Additional observations from a re-analysis of the deposited data

How the results depend on the processing

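Over 11 alternatives the median of the members lay between 0.03 (quantiles) and 0.14 (the authors' table), and 25 of the 30 members kept their sign in every one that gave them a value. The signs of Btk, Fyn, Inpp5d, Cblb and Prkcd changed in at least 1. Orai1 ran from 0.47 to 0.57, Cbl from 0.37 to 0.61, Lcp2 from -0.36 to -0.28 and Grap2 from -0.42 to -0.31. The count of members past 0.32 in size was 6 and became 2 (Orai1 and Cbl) with normexp, whose offset shrinks differences by construction and under which 6.52% of all genes passed. Of the 30 measured members none passed 2-fold, a count of 0. Fgr, whose control siRNA spot was not well above background, read 2.10-fold higher and is not among the 30. The count past 1.5-fold was 0 and became 1 with loess (Cbl, beside 4.47% of all genes), 1 with the authors' table (Cbl, 4.70%) and 1 without the filter on dim probes (Fgr, 13.1%). Of 326 values of single members, 3 moved by more than their scanner error, those of Syk and Plcg1 given above. No paired analysis was possible because each group is 1 array. Dim probes limit Sos1, Cbl and Pik3r5, which have no value under the stricter filter, and Cblb and Fgr.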
